A study of Mus musculus with 5 samples.

Results

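The genes examined here encode 10 myosin heavy and light chains, chosen by name: the heavy chains Myh6, Myh7, Myh7b, Myh9 and Myh10 and the light chains Myl2, Myl3, Myl4, Myl7 and Myl9. All 10 were among the 12446 genes of the deposited table, and all 10 were among the 10915 genes with a mean of at least 1 RPKM (reads scaled to gene length in kilobases and to library size) that were tested. They were followed in RNA of cardiomyocytes (CMs) isolated from hearts of male C57BL/6 mice aged 12 to 14 weeks, which had been injected into the thoracic cavity at 8 weeks. OSKM-CMs (3 libraries, replicates 1, 2 and 3) came from mice that received 4 adeno-associated virus (AAV) vectors together, each at 2.5e10 vector genomes per body gram. These were AAV-cTnT-Oct4-His6 and AAV-cTnT-Sox2-Flag, for tagged Oct4 and Sox2, with AAV-cTnT-Klf4-HA for tagged Klf4 and AAV-cTnT-Myc-V5 for tagged Myc. Control-CMs (2 libraries, replicates 3 and 5) came from mice given AAV-cTnT-BFP, which encodes a blue fluorescent protein, at 1e11 vector genomes per body gram. The cTnT promoter in every vector, from the cardiac troponin T gene, limits expression mainly to cardiomyocytes, and the series' design text names the serotype AAV9. Whether a library stands for 1 mouse or for pooled mice is not stated, so every p-value here reflects the spread among the 5 libraries alone, which may be technical.

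Myosin II is the motor of the thick filament. Each molecule joins a pair of heavy chains, which carry the ATPase and the coiled-coil tail, with an essential and a regulatory light chain bound to the neck of each head. The adult mouse ventricle is known for the fast alpha heavy chain (Myh6) with the light chains Myl2 and Myl3, the fetal ventricle for the slower beta heavy chain (Myh7), and the atrium for the light chains Myl7 and Myl4. Myh9 and Myh10 are heavy chains of non-muscle myosin, used by many cell types in the cell cortex and in cell division.

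Reads over the listed genes totalled 2691796 to 3861805 per library. In RNA of all cells together, fewer cells of a type and less RNA per cell cannot be told apart. Of 10 cardiomyocyte markers, 9 were listed. Their summed level was 27292 to 29425 RPKM in controls and 15169 to 17772 RPKM in OSKM-CMs, and none was at 0 in either group. Among the 9, 7 were lower at a limma adjusted p below 0.05, where 14.3% of all tested genes were lower. None was higher, and Actc1 and Actn2 did not pass. Mb alone stood at 9158 to 10087 RPKM in controls and 2913 to 3604 RPKM in OSKM-CMs. Genes of the mitochondrial genome took 21.2 to 24.7% of reads in controls and 9.76 to 11.1% in OSKM-CMs. The marker levels above and the levels below are RPKM rescaled by the trimmed mean of M values (TMM). Log2 fold changes are of this rescaled RPKM plus 1, OSKM-CMs minus Control-CMs. With this scaling the median log2 fold change of all tested genes was 0.02, and with library totals alone it was 0.36.

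Of the 10 genes, 4 were higher in OSKM-CMs (Myh7, Myh10, Myl7 and Myl9), 3 were lower (Myh6, Myl2 and Myl3) and 3 did not pass the test (Myh7b, Myh9 and Myl4), at a limma adjusted p below 0.05. Over all tested genes the same test called 30.2%, with 15.9% higher and 14.3% lower. The groups did not overlap for the 7 genes that passed, against 57.9% of all tested genes (30.0% with OSKM-CMs higher and 27.9% with them lower). The authors' deposited table gave an FDR below 0.05 for the same 7 genes and for 31.8% of all listed genes.

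**Figure D1:**
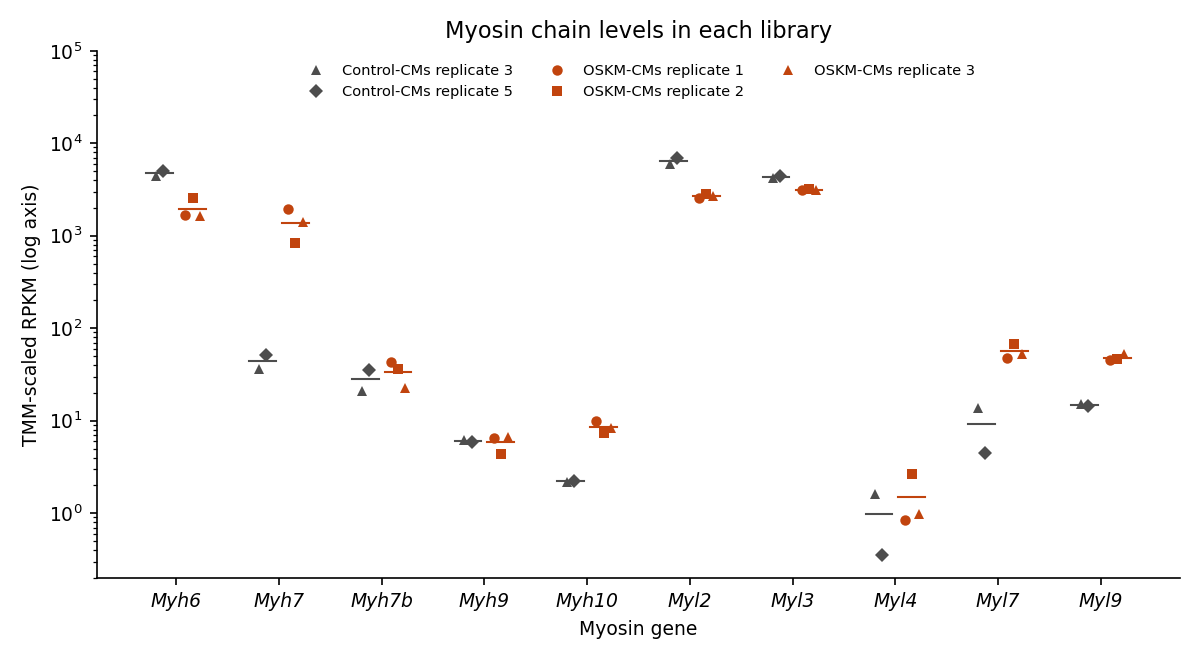
Level of each myosin gene in each library, as TMM-scaled RPKM on a log axis, with 1 point per library (2 Control-CMs, 3 OSKM-CMs) and a bar at each group mean. Myh7 lay between 36.4 and 51.0 RPKM in controls and between 828 and 1946 RPKM in OSKM-CMs, while Myh7b, Myh9 and Myl4 overlapped between the groups.

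Myh6 and Myh7 lie next to each other on chromosome 14, both on the minus strand. In RefSeq Myh7b and Myl9 lie on chromosome 2, Myl2 on 5, Myl3 on 9, Myh10, Myl4 and Myl7 on 11 and Myh9 on 15. The promoters of Myh6, Myh7 and Myl7 are shown because these genes held the change of the main heavy chain and the largest light chain change among the 10 genes. Each sequence is the 250 bases before a RefSeq start (assembly GRCm38.p6), written 5′ to 3′ on the gene's strand, and RefSeq entries were found for 10 of 10 genes. Myh7 has more than 1 entry, and the upstream one is printed. Capitals mark matches, on either strand, to motifs known from muscle promoters or bound by the delivered factors: the MCAT element CATTCC (bound by TEAD factors), CACCC (KLF factors), AACAAT (SOX factors) and the CArG box (serum response factor). ATGCAAAT (OCT factors), CACGTG (E-box, bound by MYC), AGGTCA (a nuclear receptor half-site) and TATAAA were searched as well and had no match in these 3 windows.
Myh6, chr14:54966608-54966857: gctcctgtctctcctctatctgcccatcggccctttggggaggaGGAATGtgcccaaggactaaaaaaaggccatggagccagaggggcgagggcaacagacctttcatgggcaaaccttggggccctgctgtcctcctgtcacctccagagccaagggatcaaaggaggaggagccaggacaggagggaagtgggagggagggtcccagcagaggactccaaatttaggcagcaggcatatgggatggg
Myh7, chr14:54994627-54994876: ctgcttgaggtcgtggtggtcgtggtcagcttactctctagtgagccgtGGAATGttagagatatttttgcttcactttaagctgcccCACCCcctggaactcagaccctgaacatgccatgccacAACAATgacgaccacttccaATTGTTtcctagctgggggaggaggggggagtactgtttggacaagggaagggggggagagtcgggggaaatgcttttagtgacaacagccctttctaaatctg
Myl7, chr11:5898783-5899032: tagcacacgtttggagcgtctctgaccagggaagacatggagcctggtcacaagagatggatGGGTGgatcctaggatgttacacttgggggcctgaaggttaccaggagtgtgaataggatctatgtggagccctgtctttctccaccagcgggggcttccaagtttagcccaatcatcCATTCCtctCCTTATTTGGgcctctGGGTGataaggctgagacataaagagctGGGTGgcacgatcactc

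All 3 printed windows held a match to the MCAT element, which 12.6% of 32851 RefSeq promoters of this length hold. In the Myh6 window it lay 206 to 201 bases before the start and in the Myh7 window 201 to 196 bases before it, in both as the reverse complement GGAATG. The window of the downstream Myh7 entry held no MCAT match, 3 CACCC matches and the same pair of AACAAT matches. Of the genes not printed, Myh10 and Myl3 held an MCAT match, and Myh7b, Myh9, Myl2, Myl4 and Myl9 held none. The RefSeq starts of Myl2 lie 8227 and 7762 bases from the nearest start of a coding transcript in the GENCODE annotation. The Myl2 windows therefore do not cover the promoter at that start, whose motifs were not searched. The printed Myh7 window also held a CACCC match and a pair of AACAAT matches on opposite strands, which 52.0% and 9.42% of promoters hold at least once. The Myl7 window held 3 CACCC matches, all on the opposite strand, and a CArG box next to its MCAT match. The CArG box is found in 1.47% of promoters and overlapped no other match there. Among the genes not printed, Myl3, which was lower in OSKM-CMs, also held an AACAAT match and a CArG box. Myl9 held a CArG box too, and CACCC matches lay in windows of Myh9, Myh10, Myl2, Myl3 and Myl9. These matches describe letters only, and binding was not measured.

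Myh6, the alpha heavy chain, stood at 1664, 2536 and 1636 RPKM in OSKM-CMs replicates 1, 2 and 3 and at 4462 and 4978 RPKM in Control-CMs replicates 3 and 5. Every OSKM library was below both controls, and OSKM replicate 2 was the highest of its group. The mean fell from 4719.9 ± 365 (SD, n = 2) to 1945 ± 512 RPKM (SD, n = 3), with a log2 fold change of -1.31 (SE 0.20, limma adjusted p = 0.00338). Myh6 alone took 2.51 and 2.53% of reads in controls and 1.18, 1.81 and 1.19% in OSKM-CMs.

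Myh7, the beta heavy chain, stood at 1946, 828 and 1391 RPKM in OSKM-CMs and at 36.4 and 51.0 RPKM in controls. OSKM replicate 2, which kept the most Myh6, had the least Myh7, and it was still far above both controls. The mean rose from 43.7 ± 10.3 (SD, n = 2) to 1388 ± 559 RPKM (SD, n = 3), a 31.8-fold difference. Its log2 fold change was 4.89 (SE 0.37, 95% interval 3.97 to 5.82, limma adjusted p = 0.000698). These levels rest on 969 and 1343 reads in controls and on 22072 to 51199 reads in OSKM-CMs. Ranked by RPKM among all listed genes, Myh7 moved from places 1196 and 923 in the controls to places 22, 58 and 28 in OSKM replicates 1, 2 and 3.

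The share of Myh7 in the sum of Myh6 and Myh7, both per length, was 53.9% (95% exact Clopper-Pearson interval 53.6 to 54.3), 24.6% (24.3 to 24.9) and 45.9% (45.6 to 46.3) in OSKM replicates 1, 2 and 3. In Control-CMs replicates 3 and 5 it was 0.810% (0.760 to 0.863) and 1.01% (0.961 to 1.07). These intervals cover counting error only, and the spread between the OSKM libraries was far wider than they are. By the deposited lengths only replicate 1 held more beta than alpha transcript. With the length of the longest coding transcript the shares were 60.6, 30.1 and 52.8% in OSKM-CMs and 1.06 and 1.33% in controls, so that replicate 3 then held more beta as well. The mean share was 41.5 ± 15.2% (SD, n = 3) against 0.912 ± 0.144% (SD, n = 2), and the exact 2-sided permutation p was 0.2, the smallest that 2 against 3 libraries can give. Expressed as the ratio of Myh7 to Myh6, the values were 1.17, 0.326 and 0.850 in OSKM-CMs and 0.00817 and 0.0102 in controls.

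**Figure D2:**
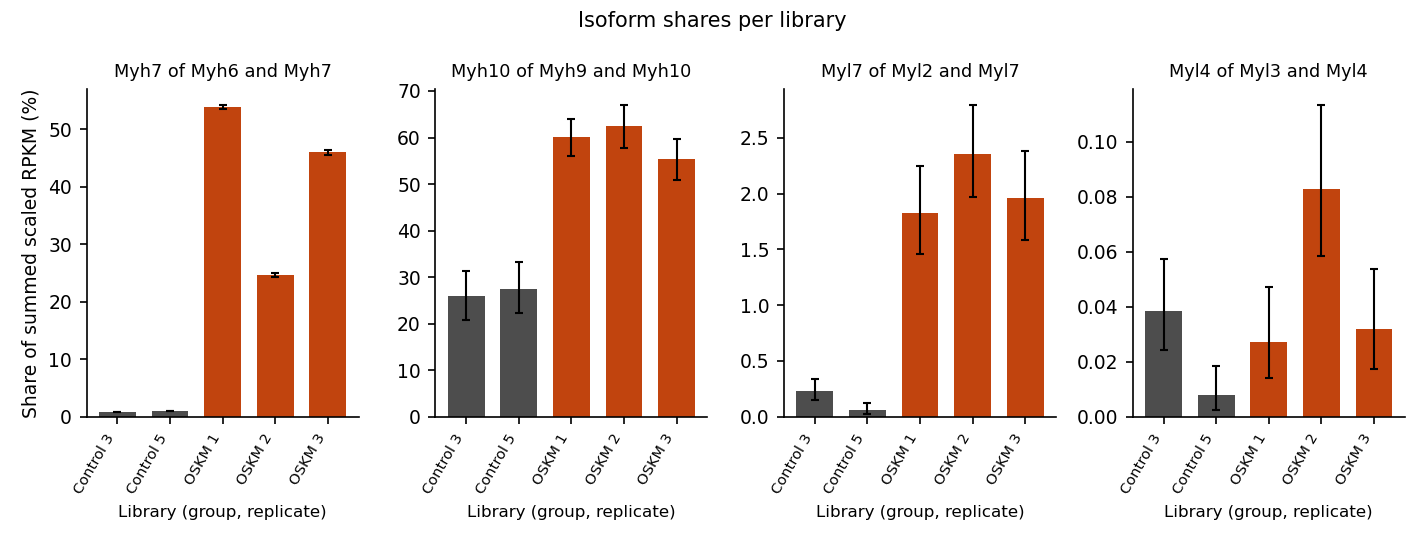
Share of a myosin gene in the summed scaled RPKM of a related pair (percent, a separate axis from 0 in each panel), with 1 bar per library, Control-CMs in grey and OSKM-CMs in orange, and 95% exact Clopper-Pearson intervals that cover counting error only. The Myh7 share of Myh6 and Myh7 was 24.6 to 53.9% in OSKM-CMs and 0.810 to 1.01% in controls, and the Myh10 share of Myh9 and Myh10 was 55.3 to 62.5% against 25.9 to 27.5%.

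Reads of the alpha and beta heavy chains can match both genes. Of the 50-base windows of the longest coding Myh7 transcript, 22.2% also occur in Myh6, and of the 100-base windows 11.2% do. Read length and the treatment of reads that match several genes are not given in the sources used here, so the low control level of Myh7 may hold reads from Myh6, and this was not tested. Myh7 also overlaps exons of the antisense RNA Mhrt, which was not listed, and without a stated strand setting reads of the pair cannot be told apart. The same limit holds for Myh6, Myh7b, Myl2, Myl3 and Myl4, which overlap exons of genes on the opposite strand. Of those genes, Trpc4ap (at Myh7b) and Ccdc63 (at Myl2) were listed.

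Summed over Myh6, Myh7 and Myh7b, the muscle heavy chains stood at 3653, 3399 and 3049 RPKM in OSKM-CMs and at 4519.5 and 5064 RPKM in controls. The OSKM libraries were all lower, but on the log2 scale the difference of the summed level was smaller than that of Myh6 or Myh7 alone. Its log2 difference was -0.51 with TMM scaling and -0.09 with library totals alone (exact permutation p = 0.2 with TMM).

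Myh7b, an ancient relative of the beta heavy chain, was present at 43.2, 35.8 and 22.8 RPKM in OSKM-CMs and at 20.9 and 35.2 RPKM in controls. The groups overlapped, and the log2 fold change was 0.26 (95% interval -0.51 to 1.04, limma adjusted p = 0.569). The interval includes both a fall and a rise. Per length, its control mean of 28.1 ± 10.1 RPKM (SD, n = 2) lay below the 43.7 RPKM of Myh7, and its OSKM mean of 33.9 ± 10.4 RPKM (SD, n = 3) lay far below the 1388 RPKM of Myh7.

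The non-muscle heavy chains parted from each other. Myh10, the heavy chain of non-muscle myosin IIB, stood at 9.86, 7.30 and 8.24 RPKM in OSKM-CMs and at 2.16 and 2.24 RPKM in controls. All OSKM libraries were above both controls, and the mean rose 3.84-fold, from 2.20 ± 0.0587 (SD, n = 2) to 8.47 ± 1.30 RPKM (SD, n = 3). The log2 fold change was 1.55 (SE 0.17, limma adjusted p = 0.000699), and it was 0.90 with an added 5 RPKM in place of 1, on 70 and 72 reads in controls and 237 to 316 reads in OSKM-CMs.

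Myh9, the heavy chain of non-muscle myosin IIA, stood at 6.55, 4.38 and 6.66 RPKM in OSKM-CMs and at 6.19 and 5.92 RPKM in controls. The controls fell inside the OSKM range, and the log2 fold change was -0.06 (95% interval -0.50 to 0.39, limma adjusted p = 0.846). Myh10 accordingly made up 60.1, 62.5 and 55.3% of the non-muscle pair in OSKM-CMs and 25.9 and 27.5% in controls. With the length of the longest coding transcript these shares were 53.7, 56.2 and 48.8% in OSKM-CMs and 21.2 and 22.6% in controls. Whether Myh10 was the larger part in OSKM replicate 3 therefore depends on the lengths used. The pair stayed a small fraction of all 5 heavy chains, at 0.342 to 0.486% in OSKM-CMs and 0.161 to 0.184% in controls.

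Among the regulatory light chains, Myl2, the ventricular form, stood at 2549, 2825 and 2663 RPKM in OSKM-CMs and at 5955 and 6950.5 RPKM in controls. The OSKM libraries lay close together and all below the controls. The mean fell from 6453 ± 704 (SD, n = 2) to 2679 ± 139 RPKM (SD, n = 3), with a log2 fold change of -1.26 (SE 0.12, limma adjusted p = 0.000463). This decline resembled that of Myh6 in size, but unlike Myh6 it was of much the same depth in OSKM replicate 2 as in the other OSKM libraries.

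Myl7, the atrial regulatory light chain, stood at 47.4, 68.2 and 53.2 RPKM in OSKM-CMs and at 13.8 and 4.45 RPKM in controls. The OSKM libraries were all higher, and the controls differed from each other, on 25 and 8 reads. The mean rose 6.17-fold, from 9.12 ± 6.60 (SD, n = 2) to 56.2 ± 10.7 RPKM (SD, n = 3), with a log2 fold change of 2.66 (SE 0.43, 95% interval 1.57 to 3.74, limma adjusted p = 0.00854). The log2 value was 1.94 without Control-CMs replicate 5 and 3.38 without Control-CMs replicate 3, so the size of the rise rests on which control is used. Even so, Myl2 remained the main form: the Myl7 share of Myl2 and Myl7 per length was 1.82, 2.36 and 1.96% in OSKM-CMs and 0.231 and 0.0640% in controls. With the length of the longest coding transcript in place of the deposited one, it was 0.836 to 1.08% and 0.0291 to 0.105%.

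Myl9, the regulatory light chain of smooth muscle and non-muscle myosin, stood at 45.7, 46.8 and 52.1 RPKM in OSKM-CMs and at 15.3 and 14.6 RPKM in controls. The libraries of each group lay close together, and no OSKM library came near a control. The mean rose 3.23-fold, from 14.9 ± 0.491 (SD, n = 2) to 48.2 ± 3.42 RPKM (SD, n = 3), with a log2 fold change of 1.63 (SE 0.12, limma adjusted p = 0.000173).

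Of the essential light chains, Myl3, the ventricular and slow muscle form, stood at 3113, 3182 and 3090.05 RPKM in OSKM-CMs and at 4169 and 4417 RPKM in controls. All OSKM libraries were lower, but by a modest amount next to Myl2. The mean fell from 4293 ± 175 (SD, n = 2) to 3128 ± 47.8 RPKM (SD, n = 3), with a log2 fold change of -0.46 (SE 0.11, 95% interval -0.70 to -0.21, limma adjusted p = 0.0157). With library totals alone the log2 value was -0.04 (limma adjusted p = 0.768), and the call was also lost without OSKM replicate 1 (adjusted p = 0.0661) and without OSKM replicate 3 (adjusted p = 0.0708).

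Myl4, the atrial essential light chain, was near the limit of detection, at 0.843, 2.63 and 0.987 RPKM in OSKM-CMs and 1.60 and 0.351 RPKM in controls, on 5 to 38 reads. The groups overlapped, and the log2 fold change was 0.34 (95% interval -0.58 to 1.26, limma adjusted p = 0.545). The atrial light chains thus gave different results, with Myl7 past the test and Myl4 not, although the interval of Myl4 reaches 1.26. At so low a level the added 1 RPKM shrinks both this value and its interval. With 0.1 RPKM added in its place the log2 fold change of Myl4 was 0.69 (SE 0.71), and the authors' deposited value was 0.71. The difference between them was not tested. The ratio of cardiac regulatory light chains (Myl2 and Myl7) to cardiac essential ones (Myl3 and Myl4), per length, was 0.834, 0.909 and 0.879 in OSKM-CMs and 1.43 and 1.57 in controls. The deposited lengths were 1937 bases for Myl2 and 1298 for Myl3, where the longest coding transcripts have 889 and 937 bases. The size of this ratio, and whether it lies above or below 1, therefore depends on the lengths used.

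**Figure D3:**
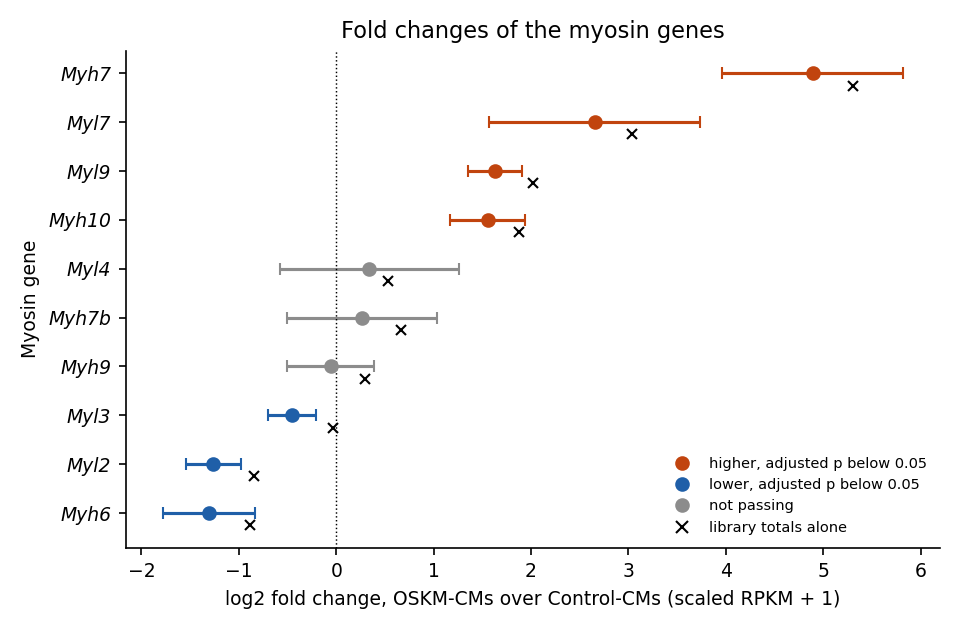
Log2 fold change of each myosin gene, OSKM-CMs minus Control-CMs, with its 95% interval from limma on TMM-scaled RPKM plus 1 (colour shows the call at an adjusted p below 0.05), and crosses for the value with library totals alone. With TMM scaling Myh7 at 4.89 and Myl7 at 2.66 were highest and Myh6 at -1.31 and Myl2 at -1.26 lowest, and the intervals of Myh7b, Myh9 and Myl4 include 0.

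The authors' deposited table gave log2 fold changes of 4.98 for Myh7, 2.70 for Myl7, 1.69 for Myl9, -1.28 for Myh6, -1.27 for Myl2 and -0.46 for Myl3. For Myh10 the authors' deposited table gave 1.94, above the 1.55 found here after adding 1 RPKM to a low level.

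Markers of other cell types were summed in the same way. Beside the counts of called markers below, 15.9% of all tested genes were higher and 14.3% lower. Of 11 atrial cardiomyocyte markers 6 were listed, and Sln, Bmp10, Nr2f1, Nr2f2 and Mybphl were not. Their sum was 57.5 to 65.9 RPKM in controls and 72.7 to 91.0 RPKM in OSKM-CMs, with 1 higher (Nppa, atrial natriuretic peptide, at a log2 fold change of 1.74), 2 lower (Kcnj5 and Stard10) and 3 not passing. Nppa alone stood at 14.9 to 19.6 RPKM in controls and 52.4 to 76.1 RPKM in OSKM-CMs, the largest part of the sum there. Kcnj5 stood at 21.4 to 23.3 RPKM in controls and 2.83 to 4.21 RPKM in OSKM-CMs. All 12 smooth muscle and pericyte markers were listed, with sums of 251 to 259.6 RPKM in controls and 274 to 415 RPKM in OSKM-CMs. Acta2 alone stood at 45.9 to 69.4 RPKM in controls and 142 to 319 RPKM in OSKM-CMs, the largest part of the sum there. Abcc9 stood at 79.6 to 81.9 RPKM in controls and 12.1 to 16.6 RPKM in OSKM-CMs. Acta2, Pdgfrb and Cspg4 were higher, Abcc9 and Smtn lower, and 6 more did not pass, among them Myh11, the smooth muscle heavy chain, Tagln and Cnn1. Of 11 fibroblast markers 10 were listed, summing to 71.9 to 155 RPKM in controls and 124 to 261 RPKM in OSKM-CMs, lowest there in replicate 2. These fibroblast sums overlapped between the groups. In this list 4 were higher, none lower and 5 not passing. The higher ones were Postn (log2 fold change 4.13), Col1a2 (2.08), Col3a1 (2.00) and Col1a1 (1.87), while Dcn, Lum, Dpt, Gsn and Pdgfra did not pass. None of the listed markers of these 3 lists was at 0 in every library of a group. The 10 endothelial markers, all listed, summed to 297 to 336 RPKM in controls and 98.7 to 214 RPKM in OSKM-CMs, with 3 lower (Kdr, Fabp4 and Egfl7), none higher and 7 not passing. The only listed blood marker of 5, Hbb-b1, stood at 6.04 to 9.35 RPKM in controls and 0.373 to 3.03 RPKM in OSKM-CMs. Macrophage and leukocyte (6 of 11 listed, 13.0 to 53.4 against 8.15 to 40.2 RPKM), conduction system (5 of 7, 2.18 to 5.76 against 1.96 to 2.89 RPKM) and mesothelial sums (5 of 7, 4.84 to 12.3 against 2.89 to 5.74 RPKM) overlapped between the groups. The part of atrial, smooth muscle, fibroblast or other cells in the rise of Myl7, Myl9 and Myh10 was not tested.

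Other genes of the myosin II family were listed for 7 of 16 and tested for 6. Of these 6, 3 were higher and none lower, where 15.9% of all tested genes were higher and 14.3% lower. Their median log2 fold change was 0.44 against 0.02 for all tested genes. Myl1, the essential light chain of fast skeletal muscle, stood at 57.2, 110.5 and 101 RPKM in OSKM-CMs and at 13.5 and 19.4 RPKM in controls. Every OSKM library was above both controls, and the mean was 5.45-fold higher (log2 difference 2.34, limma adjusted p = 0.00284). Myl6, the essential light chain of smooth muscle and non-muscle myosin, rose from 90.4 ± 6.67 (SD, n = 2) to 189.99 ± 37.7 RPKM (SD, n = 3), a log2 difference of 1.05 (limma adjusted p = 0.00328). Its relative Myl6b was higher by 1.15 on the log2 scale (limma adjusted p = 0.0267) on 2 to 14 reads, and it missed the threshold in 4 of 12 alternative settings. The log2 fold changes of the others were -0.54 for Myl12b, -0.20 for Myh11 and -0.17 for Myh14, none past the test. Mylpf, the regulatory light chain of fast skeletal muscle, had 3 to 4 reads per OSKM library and 0 in the controls, which is at the level of the 3-read floor. Of 10 skeletal muscle markers 2 were listed, and the fast troponins Tnnt3, Tnni2 and Tnnc2 were not among them. Their sum was 1.12 to 1.51 RPKM in controls and 2.04 to 2.93 RPKM in OSKM-CMs. Chrna1, a subunit of the muscle acetylcholine receptor, had 0 reads in both controls and 15 to 23 reads in OSKM-CMs, while Neb, the giant thin filament protein nebulin, had a lower mean in OSKM-CMs, overlapped between the groups and did not pass.

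Enzymes that set light chain phosphorylation and its regulators gave 4 higher and 3 lower of 15 tested genes, with a median log2 fold change of -0.11. Of all tested genes 15.9% were higher and 14.3% lower, and nothing particular to this list or the 3 described after it is read from their counts. With library totals alone 6 were higher and 2 lower (median 0.19), and leaving out Control-CMs replicate 3 or replicate 5 left 2 higher and 2 lower. Mylk3, the cardiac kinase of Myl2, fell from 275 ± 5.91 (SD, n = 2) to 126 ± 18.1 RPKM (SD, n = 3), a log2 difference of -1.13 (limma adjusted p = 0.00112). Ppp1r14c, an inhibitor of protein phosphatase 1, had a log2 fold change of -1.65, and Ppp1cb, the catalytic subunit of myosin phosphatase, had -0.43. Among the higher genes, the phosphatase inhibitor Ppp1r14b had 0.79, the myosin phosphatase targeting subunit Ppp1r12a had 0.77 and Rock1, a kinase that acts on that subunit, had 0.51. Mylk3, Ppp1r14c, Ppp1r14b and Ppp1r12a passed in all 12 alternative settings, while Rock1 missed the threshold in 3 and Ppp1cb in 4 of them.

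**Figure D4:**
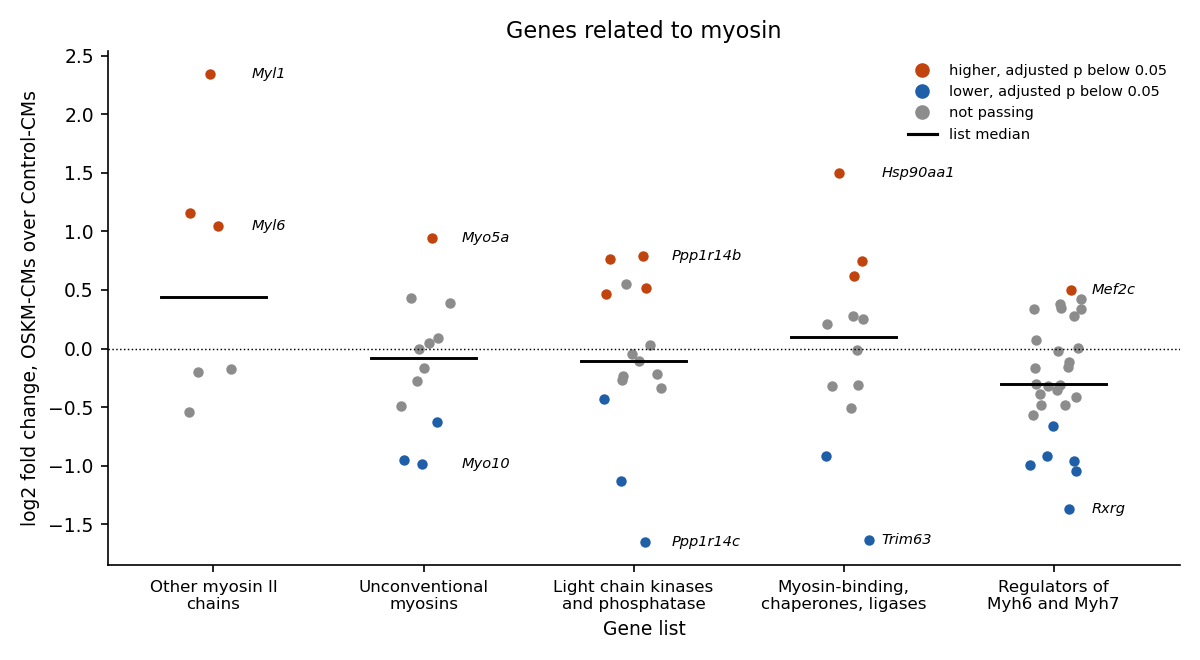
Log2 fold change of each tested gene in 5 lists of related genes, 1 point per tested entry, coloured by the call at an adjusted p below 0.05, with a bar at each list's median and names at some of the outermost calls. The medians ran from -0.30 for regulators of the cardiac myosin genes to 0.44 for other myosin II genes, against 0.02 for all tested genes.

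Genes of thick filament assembly and turnover gave 3 higher and 2 lower of 12 tested (30.2% of all tested genes were called), with a median log2 fold change of 0.10. With library totals alone 7 were higher and 2 lower (median 0.51). The chaperone Hsp90aa1, which works with UNC45 in folding the myosin head, rose by 1.50 on the log2 scale, the methyltransferase Smyd2 by 0.75 and the myosin-binding protein Mybpc3 by 0.62. Mybpc3 went from 1224 ± 30.1 (SD, n = 2) to 1885 ± 149 RPKM (SD, n = 3), the opposite direction to Myh6 and Myl2 in the same filament. The ubiquitin ligase Trim63 (MuRF1), which targets myosin heavy chains, had a log2 fold change of -1.64 and its relative Trim54 had -0.92. These 5 passed in all 12 alternative settings.

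Transcription factors and cofactors known to act on the cardiac myosin genes gave 1 higher and 6 lower of 28 tested entries, with a median log2 fold change of -0.30, where 30.2% of all tested genes were called and 14.3% were lower. Without Control-CMs replicate 5 none was higher and 4 were lower. The lower ones included Rxrg (-1.37) and Rxra (-1.04), retinoid X receptors that pair with the thyroid hormone receptor, and an entry of Hdac4 (-0.99), a class II histone deacetylase. Thra, the thyroid hormone receptor alpha, through which the hormone raises Myh6 and lowers Myh7, fell from 14.5 ± 1.59 (SD, n = 2) to 7.07 ± 1.90 RPKM (SD, n = 3). Its log2 fold change was -0.96 (limma adjusted p = 0.0125), and -0.86 without Control-CMs replicate 5 (limma adjusted p = 0.0705). Mef2c was the higher one at 0.50, and it missed the threshold in 4 of 12 alternative settings. Gata4 at -0.02 and Tead1, a factor that binds the MCAT element, at -0.41 did not pass. With library totals alone 9 entries were higher and 4 lower, and their median was 0.06 where that of all tested genes was 0.36.

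The unconventional myosins, motors outside class II, gave 1 higher and 3 lower of 12 tested (30.2% of all tested genes were called), with a median log2 fold change of -0.08. With library totals alone 3 were higher and 2 lower (median 0.31). Leaving out OSKM-CMs replicate 1 or 3 or Control-CMs replicate 3 left 1 higher and 1 lower, and leaving out Control-CMs replicate 5 left 1 higher and none lower. Myo5a, a vesicle motor, had 0.94 and passed in all 12 alternative settings. Myo10 (-0.98), Myo5c (-0.95) and Myo5b (-0.63) missed the threshold in 1, 4 and 5 of them.

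Likeness of pattern was measured as the root mean square distance between log2 values centred on each gene's mean over the 5 libraries. Nearest to Myh6 were Coq10a (0.0477), Fam132a (0.0612) and Crat (0.0694). Coq10a stood at 42.3, 64.7 and 43.9 RPKM in OSKM-CMs and 114 and 122 RPKM in controls, with the highest OSKM value in replicate 2 as for Myh6. Nearest to Myh7 were SNORA25 (0.343), Sox2 (0.351) and Pou5f1 (0.408), all listed at 0 in both controls. Sox2 and Pou5f1, the gene of Oct4, are among the delivered factors, and both were highest in OSKM replicate 1, as Myh7 was. Whether Myh7 follows the level of the delivered factors was not tested. Nearest to Myl7 were Grk5 (0.238), Trim47 (0.296) and Asns (0.300). With 5 libraries in 2 groups, any gene that differs by a like amount between the groups comes close on this measure.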

How the data were processed

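RNA from 5 libraries of isolated adult mouse cardiomyocytes was analysed. Per the submitters' processing notes, the tools were STAR 2.5.3 and HTSeq, with CASAVA 1.8.2, Trimmomatic and FastQC, and the build was mm9. Annotation and strand setting are not given in the sources used here. The deposited table gave RPKM per library, a unit inferred from the values, beside the authors' log2 fold change, log2 abundance, test score, p-value and FDR. Whole reads were recovered from the RPKM steps for all 12446 genes (100%, tolerance 0.0001 reads), 440 of them, no myosin gene studied here among these, with a common factor settled from the authors' abundance. TMM factors (30% and 5% trims) came from these reads. With limma 3.58.1 (R 4.3.3, trend and robust, 2-sided), log2(scaled RPKM + 1) was modelled for 10915 genes with a mean of at least 1 RPKM, with Benjamini-Hochberg adjustment over all of them. This called 3298 genes at 0.05. The test was checked on simulated data. The added 1 understates changes of low genes. For 0 reads the upper limit is 3 reads, which is 0.777 to 1.11 CPM. Shares divide RPKM within a library, so comparisons between genes depend on the deposited gene lengths, which were 8548 bases for Myh7 and 6368 bases for Myh6.

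The myosin genes and the gene lists were chosen with earlier results of these data known. All 10 myosin genes are named. Of each related list the 3 highest and 3 lowest calls were to be named, with all tested genes of the myosin II list. Other genes named from the lists (Thra, Gata4, Tead1 and single markers) were picked after their values were seen. For Myh6, Myh7 and Myl7 the 3 nearest genes by pattern are named. Symbols were taken from the table, where 77 entries share a symbol and Hdac4 is listed in 2 entries. Alternatives varied scaling, added value, filter, test and libraries. Sequences are from RefSeq (GRCm38.p6).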

Additional observations from a re-analysis of the deposited data

How the results depend on the processing

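Myh6, Myh7, Myh10, Myl2, Myl7 and Myl9 kept their direction and call in all 12 alternative settings, and Myl3 in 9 of 12 (-0.036 with library totals alone). Without 1 library in turn Myh7b ran from -0.10 to 0.63, Myh9 from -0.15 to 0.10 and Myl4 from -0.14 to 0.82. Among genes that passed no test, Myh7b turned to -0.10 without Control-CMs replicate 3, Myh9 to 0.30 with library totals alone and to 0.10 without OSKM-CMs replicate 2, and Myl4 to -0.14 without Control-CMs replicate 5. Without OSKM-CMs replicate 2, Myl4 was under the filter and gave no value. With library totals alone 3985 genes were higher and 650 lower (86.0% of calls higher, against 52.8% with TMM). The summed levels then differed by -0.091 (Myh6, Myh7 and Myh7b), 1.20 (Myh9 and Myh10), -0.82 (Myl2 and Myl7), -0.036 (Myl3 and Myl4) and -0.47 (Myl2 and Myl3) on the log2 scale. By reads without length, the groups' shares differed by 0.335 percentage points for Myh9 and Myh10, 0.580 for Myl7, 0.0857 for Myl4 and 0.920 for Myl9. By longest transcript, chosen after seeing the data, they differed by 0.871 for Myl7, 0.0852 for Myl4 and 0.725 for Myl9. Leaving out 1 library in turn gave 1158 (without OSKM-CMs replicate 3) to 1562 genes higher and 953 (without Control-CMs replicate 5) to 1504 lower. It gave summed differences of -0.50 to -0.41 (Myl3 and Myl4), -0.97 to -0.80 (Myl2 and Myl3) and 1.89 to 3.57 (Myl4 and Myl7, without Control-CMs replicate 5 and 3). The cause was not tested. The planned negative binomial fits on recovered reads were not run, and limma voom on those reads was run. No paired analysis was run, because the labels state no pairing between OSKM-CMs and Control-CMs libraries. With 5 to 38 reads, depth limits Myl4.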
